A study of Mus musculus with 8 samples.

Results

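The genes described here are 10 transcription factor genes that direct the effector and memory fates of CD8+ T cells: *Tbx21*, *Eomes*, *Id2*, *Runx3*, *Stat4*, *Irf4*, *Batf*, *Bach2*, *Foxo1* and *Ikzf2*. They were chosen by gene symbol, and all 10 were found among the 55335 genes of the count table. RNA-seq was performed on antigen-experienced CD8+ T cells infiltrating MC38 tumors, a transplanted mouse colon carcinoma, in C57BL/6 mice. Living CD8+ cells that carried CD45.2 and TCRβ and were positive for both CD44 and PD-1 were sorted, 10000 to 20000 per sample. The question of the comparison was what the loss of LSD1, a histone demethylase encoded by *Kdm1a*, changed in these cells.

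The WT group was 4 samples from Lsd1f/f mice, which carry the floxed gene without Cre, and each WT sample pooled the cells of 2 mice. The KO group was 4 samples from Cd4-Cre+Lsd1f/f mice, each from 1 mouse. The Cd4-Cre transgene deletes a floxed gene while T cells develop, so CD4+ T cells and regulatory T cells of the KO mice lose LSD1 as well as the CD8+ T cells. The sample descriptions give day 18 after tumor implantation and the description of the series gives day 14. Pooling went with genotype, so the effect of one cannot be told apart from that of the other. Samples are called S1 to S4 for WT and S5 to S8 for KO, as in the study's own naming of these libraries.

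T-bet, encoded by *Tbx21*, and EOMES are T-box factors that share targets among the cytotoxic genes; T-bet is linked to effector cells, and EOMES to memory cells and to terminally exhausted cells. ID2 holds E proteins away from DNA in effector cells, RUNX3 keeps the CD8 lineage and its cytotoxic and tissue-resident programs, and STAT4 carries the interleukin-12 signal. IRF4 and BATF bind composite sites together downstream of the T cell receptor, and BACH2 occupies AP-1 sites and restrains effector genes. FOXO1 maintains genes of quiescence and homing, and *Ikzf2* encodes Helios, an Ikaros family factor best known from regulatory T cells.

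Of the 10 genes, 1 rose in the KO samples and none fell. *Irf4* was 2.06-fold higher. *Eomes* and *Bach2* had lower means, and *Stat4* a higher mean, at adjusted p-values between 0.01 and 0.05, and the other 6 had adjusted p-values of 0.0948 to 0.486. Calls came from edgeR's quasi-likelihood test over 15378 genes, all 10 factors included, and required an adjusted p (Benjamini-Hochberg) below 0.01 together with a change of more than 1.5 times. The call took in 4.90% of all tested genes, 2.91% in the higher and 1.99% in the lower direction, so 1 of 10 is near the background. At an unadjusted p under 0.05, 4 of the 10 were higher and 2 lower, and DESeq2 also called 1 higher and 0 lower. An adjusted p under 0.05 was reached by 4 of the 10, against 11.3% of all genes. The median log2 fold change of the 10 was 0.00, with 5 positive and 5 negative values, and their median absolute log2 fold change was 0.36, against -0.01 and 0.29 over all tested genes. The groups did not overlap for 3 of the 10 (*Irf4*, *Stat4* and *Bach2*), against 17.3% of all genes; 2 of them were higher and 1 lower in KO, against 8.99% and 8.28%.

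The sequence just upstream of 3 of the genes is shown to give the regulatory context of *Irf4*, the gene that was called, and of the T-box pair *Eomes* and *Tbx21*, whose relation is tested further on. Each is the 250 bases before the RefSeq start site, 5′ to 3′ on the strand of the gene, on GRCm38.p6. They lie at chr13:30748983-30749232 on the plus strand for *Irf4*, chr9:118477939-118478188 on the plus strand for *Eomes* and chr11:97115332-97115581 on the minus strand for *Tbx21*.
Irf4: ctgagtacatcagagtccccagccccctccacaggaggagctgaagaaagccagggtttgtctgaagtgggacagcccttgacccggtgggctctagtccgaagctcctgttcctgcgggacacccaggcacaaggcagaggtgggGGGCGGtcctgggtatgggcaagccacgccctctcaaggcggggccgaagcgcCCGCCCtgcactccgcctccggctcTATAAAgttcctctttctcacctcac
Eomes: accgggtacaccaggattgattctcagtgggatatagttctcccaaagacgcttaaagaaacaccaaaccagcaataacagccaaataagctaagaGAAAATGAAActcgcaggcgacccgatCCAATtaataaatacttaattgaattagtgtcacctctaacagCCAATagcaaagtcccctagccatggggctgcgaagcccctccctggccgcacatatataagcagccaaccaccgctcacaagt
Tbx21: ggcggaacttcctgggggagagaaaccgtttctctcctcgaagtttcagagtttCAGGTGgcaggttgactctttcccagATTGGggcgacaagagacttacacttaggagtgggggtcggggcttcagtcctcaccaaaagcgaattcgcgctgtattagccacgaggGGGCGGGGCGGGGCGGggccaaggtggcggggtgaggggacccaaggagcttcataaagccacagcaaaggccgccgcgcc
Capitals mark matches, on either strand, to 10 short motifs. In *Irf4* they are a TATA box (TATAAA) that begins at base -26, counted from the start site, and GC boxes (GGGCGG) at -104 and -51. In *Eomes* they are an IRF element (GAAA, any 2 bases, GAAA) at -154 and CCAAT boxes (CCAAT) at -127 and -84. In *Tbx21* they are an E-box of the E protein type (CAGGTG) at -196, a CCAAT box at -170 and GC boxes at -81, -76 and -71, and 2 bases there lie in more than 1 match.

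Of 32851 RefSeq windows of this length, 2.98% held the IRF element, 17.2% the E-box, 12.4% the TATA box, 33.8% the CCAAT box and 32.7% the GC box. The AP-1 motif (TGANTCA), in 6.75% of windows, and the T-box motif (GGTGTGA), in 3.33%, were in none of the 11 windows that matched 9 of the 10 factors; *Ikzf2* was not matched. The RUNX motif (TGTGGTT), in 4.40% of windows, occurred at -135 and -127 in 1 of the 2 *Runx3* windows and at -57 in *Batf*. The IRF element was also in 1 of the 2 *Stat4* windows, at -97. A match is a description of letters and not of a bound site. The NF-kB motif (GGGA, any base, TTTCC), in 0.356% of all windows, was in none of the 11, and the TCF/LEF motifs (CTTTG, with A or T at each of the next 2 bases), in 14.8%, were in 1 of the 2 *Stat4* windows.

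The targeted gene *Kdm1a* was at 44.6, 47.2, 42.7 and 44.9 CPM (counts scaled to library size, with TMM factors) in WT and at 25.2, 30.5, 32.0 and 34.8 CPM in KO. All 4 KO samples were lower, and the log2 fold change was -0.55 (SE 0.14, adjusted p = 0.0163 in edgeR's quasi-likelihood test), which did not reach the call. Counts were summed over all exons, so reads from outside the floxed part still counted. Their part in the remaining *Kdm1a* level was not tested. Library totals ran from 11657807 to 30295406 counts, with S8 the deepest, and 3 counts were worth 0.106 to 0.25 CPM. The 10 defining genes of CD8+ T cells were all expressed, with a summed level of 4239 to 4850 CPM in WT and 4007 to 4851 CPM in KO. Markers of other cell types also differed: 12 of 17 myeloid markers were called lower in KO, and their sum was 447 to 1283 CPM in WT, highest in S3, against 219 to 306 CPM in KO. Of 7 markers of regulatory and CD4+ T cells, 4 were called higher (*Ctla4*, *Il2ra*, *Cd40lg* and *Zbtb7b*), with sums of 504 to 637 CPM and 892 to 1118 CPM. *Ctla4* and *Il2ra* made up most of these sums, at 267 to 309 and 161 to 232 CPM in WT. In KO they were at 404 to 614 and 309 to 336 CPM. *Cd4*, at 1.86 to 6.87 CPM in WT and 7.26 to 26.2 CPM in KO (adjusted p = 0.0161), was not called. Neither was *Foxp3* (adjusted p = 0.37). B cell markers summed to 4.65 to 7.59 CPM in WT and 16.3 to 45.9 CPM in KO, with 1 of 3 tested markers higher and *Blk* at 0 in all samples. NK cell markers summed to 1.73 to 3.43 and 2.53 to 7.35 CPM, and those of tumor epithelium and fibroblasts to at most 6.36 CPM, with *Krt8* and *Krt19* at 0. Markers of plasmacytoid dendritic cells, 2 of 5 tested and none called, summed to 37.4 to 42.9 and 20.6 to 49.6 CPM. In these bulk samples, more cells of a type and more RNA per cell cannot be told apart.

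**Figure D1:**
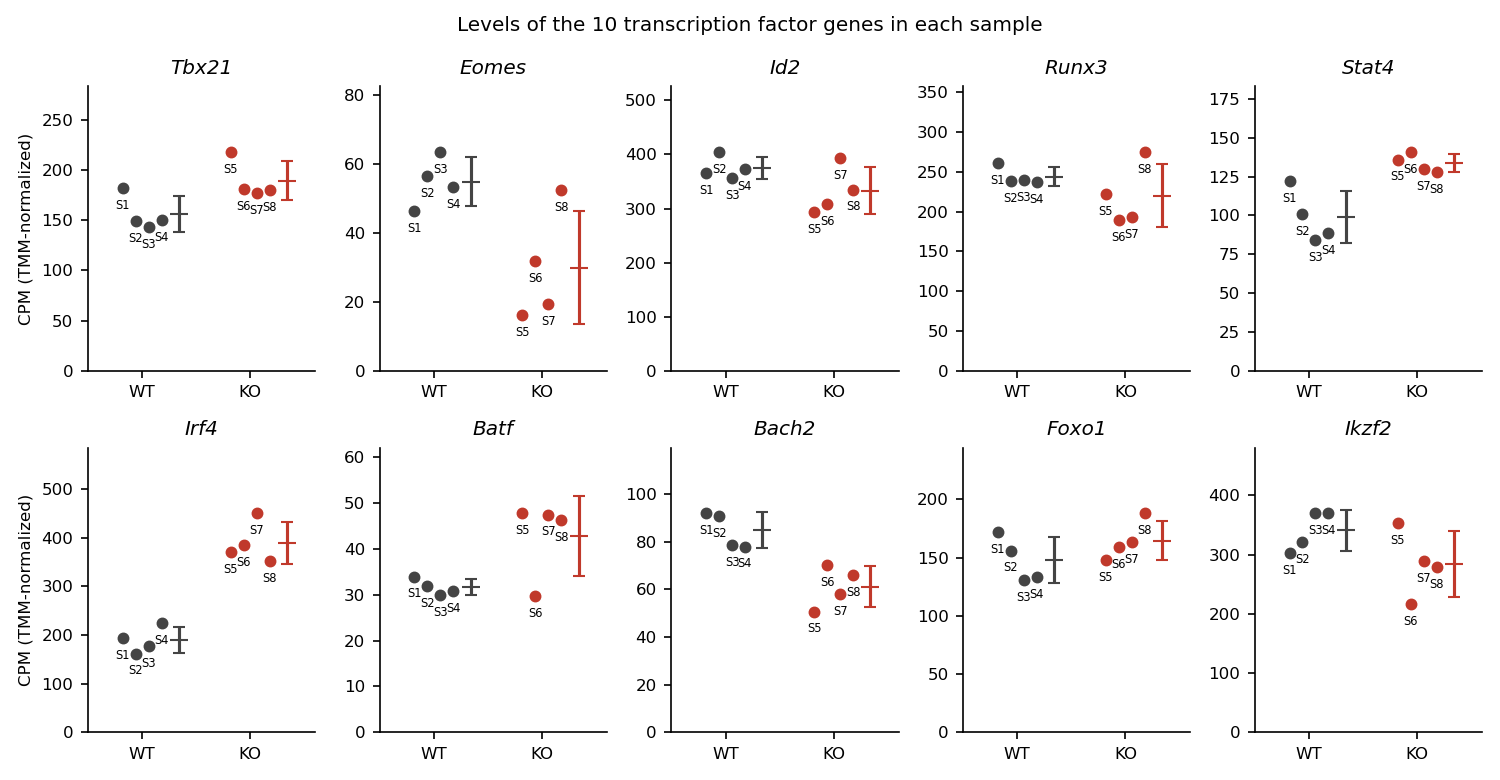
Levels of the 10 factors in CPM (linear axis from 0) in each WT (grey) and KO (red) sample, with the mean and SD of 4 samples beside the points. *Irf4*, *Stat4* and *Bach2* are the 3 genes whose groups do not overlap, and S8 stands apart from S5 to S7 for *Eomes*.

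*Irf4* (ENSMUSG00000021356; chromosome 13, 30749226 to 30766976, plus strand, GRCm38), which scales effector expansion with the strength of the T cell receptor signal, was at 194, 162, 178 and 224 CPM in S1 to S4. In S5 to S8 it was at 371, 384, 450 and 352 CPM. The lowest KO sample was thus well above the highest WT sample. The means were 189 ± 26.4 CPM in WT and 389 ± 42.8 CPM in KO (SD, n = 4 each). The log2 fold change was 1.04 (SE 0.11, 95% interval 0.80 to 1.28, adjusted p = 1.21e-05 in edgeR's quasi-likelihood test), and its rank by p was 88 among 15378 genes. The call held in each of the 17 alternatives, and without any 1 sample the log2 fold change was 0.96 to 1.13. *Irf4* is also expressed by B cells and regulatory T cells. Some of their markers were called higher in KO, and the part of these cells in the result was not tested.

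*Batf* (ENSMUSG00000034266; chromosome 12, 85686669 to 85709087, plus strand), the AP-1 partner of IRF4, was at 33.9, 31.8, 29.9 and 30.7 CPM in WT. In KO it was at 47.7, 29.6, 47.4 and 46.2 CPM. S5, S7 and S8 were above every WT sample and S6 was below all of them. The log2 fold change of 0.44 (SE 0.16, 95% interval 0.10 to 0.78, adjusted p = 0.0948) did not pass the test, and without any 1 sample it was 0.38 to 0.58 with adjusted p-values of 0.0157 to 0.224.

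*Bach2* (ENSMUSG00000040270; chromosome 4, 32238804 to 32586108, plus strand), the repressor at AP-1 sites, was at 91.9, 90.7, 78.7 and 77.9 CPM in WT. In KO it was at 50.7, 70.1, 58.0 and 65.9 CPM. All 4 KO values lay under the lowest WT value. The means were 84.8 ± 7.53 and 61.2 ± 8.62 CPM (SD, n = 4), and the log2 fold change was -0.47 (SE 0.12, 95% interval -0.73 to -0.21, adjusted p = 0.0197). It passed neither the adjusted p of 0.01 nor the fold limit.

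Of the 11 tested genes listed as BATF-IRF4 partners and AP-1, 1 was called, *Irf8*, and it fell. *Irf8*, a relative of *Irf4* used by T cells and strongly by myeloid cells, was at 395, 418, 441 and 530 CPM in WT and at 318, 264, 234 and 254 CPM in KO. The groups did not overlap, with a log2 fold change of -0.74 (SE 0.12, adjusted p = 4.19e-04). The 12 myeloid markers counted above were also lower in KO, and their part in this result was not tested. *Fosb*, an AP-1 subunit, had a log2 fold change of 0.53 (adjusted p = 0.00594), short of the fold limit, and *Prdm1*, which encodes the effector repressor BLIMP-1, had 0.34 (adjusted p = 0.107). *Batf3*, the closest relative of *Batf*, was low, at 0.82 to 2.53 CPM in WT and 2.43 to 8.73 CPM in KO (log2 fold change 1.75, adjusted p = 0.0329). None of the 4 genes listed as BACH and small MAF proteins was called, namely *Bach1*, *Mafk*, *Mafg* and *Maff*, which had log2 fold changes of -0.18 to 0.14, and 0 had an unadjusted p under 0.05 in edgeR's quasi-likelihood test or a call by DESeq2. Without S4, without S5 or by DESeq2, 1 gene of the BATF-IRF4 list was called higher, and without S8, 2 were called lower.

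*Tbx21* (ENSMUSG00000001444; chromosome 11, 97098071 to 97115331, minus strand) was at 182, 149, 143 and 150 CPM in WT. In KO it was at 218, 181, 177 and 180 CPM. The WT sample S1 lay above S6, S7 and S8, so the groups overlapped. Its log2 fold change was 0.28 (SE 0.11, 95% interval 0.05 to 0.51, adjusted p = 0.11), which did not pass the test.

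*Eomes* (ENSMUSG00000032446; chromosome 9, 118478212 to 118486132, plus strand) was at 46.3, 56.5, 63.6 and 53.4 CPM in WT. In KO it was at 16.3, 31.8, 19.4 and 52.5 CPM. S5, S6 and S7 were below every WT sample, and S8 lay inside the WT range. The means were 54.9 ± 7.16 and 30.0 ± 16.4 CPM (SD, n = 4), and the log2 fold change was -0.86 (SE 0.27, 95% interval -1.42 to -0.29, adjusted p = 0.0477). It was past the fold limit but was not called. Of the alternatives with the same thresholds, 2 took it past the call: without S8 the log2 fold change was -1.28 (adjusted p = 7.08e-04), and with no filter on low counts the adjusted p was 1.55e-06. The adjusted p was 0.124 by DESeq2 and 0.615 when tested against a fold change of 1.5, and leaving out any sample other than S8 gave log2 fold changes of -0.93 to -0.65 with adjusted p-values of 0.0567 to 0.135.

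Of the 15 genes listed as T-box targets and effector genes, none was called in edgeR's quasi-likelihood test or by DESeq2, 2 were higher and 1 lower at an unadjusted p under 0.05, and 1 had an adjusted p under 0.05. That gene was *Ifng*, which encodes interferon gamma, with a log2 fold change of 0.49 (SE 0.14, adjusted p = 0.0331). *Ccl5*, a chemokine of cytotoxic cells, was at 196 to 254 CPM in WT and at 69.8, 149, 133 and 232 CPM in KO, so S8 again lay inside the WT range (log2 fold change -0.64, adjusted p = 0.0899). *Fasl*, the death ligand, had a log2 fold change of 0.27 (adjusted p = 0.157). *S1pr5*, an egress receptor gene, was at 0.58 to 1.80 CPM in WT, at 0 counts in S5, S6 and S7, which allows up to 0.197, 0.242 and 0.25 CPM there, and at 0.81 CPM in S8 (adjusted p = 0.261). Without S4, 1 gene of the list was called higher, and without S8 or with no filter on low counts, 1 was called lower.

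*Id2* (ENSMUSG00000020644; chromosome 12, 25093799 to 25097140, minus strand) was at 366, 405, 356 and 373 CPM in WT and at 294, 309, 393 and 335 CPM in KO. S7 lay inside the WT range and the other KO samples lay below it. This gave a log2 fold change of -0.17 with a 95% interval of -0.39 to 0.04 (adjusted p = 0.326). Its relative *Id3*, which is linked to memory precursors, was at 18.1 to 21.6 CPM in WT and at 11.6, 16.5, 9.60 and 30.4 CPM in KO, on both sides of WT. Of the 5 tested genes of the E protein and Id family none was called in edgeR's quasi-likelihood test, and at an unadjusted p under 0.05 1 was higher and 0 lower. *Tcf4*, which encodes the E protein E2-2, came nearest with a log2 fold change of 0.71 (adjusted p = 0.0132) and was at 23.2 to 37.2 CPM in WT and 37.9 to 59.8 CPM in KO. *Id1* had a log2 fold change of -0.87 (adjusted p = 0.304) at 5.30 CPM or less in every sample, and *Tcf3* had -0.10 (adjusted p = 0.747). With DESeq2, without S2, without S8 or with no filter, 1 gene of this family was called higher.

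**Figure D2:**
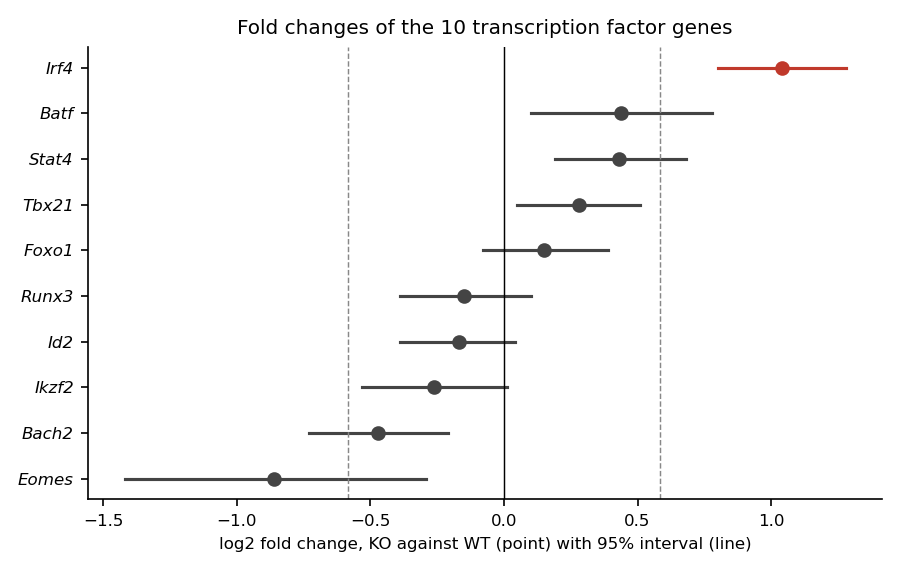
Log2 fold changes of the 10 factors, KO against WT, with 95% intervals from edgeR's quasi-likelihood fit of 4 and 4 samples. The dashed lines stand at a 1.5-fold change, and *Irf4* (red) is the gene called, with its whole interval of 0.80 to 1.28 beyond the line.

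*Runx3* (ENSMUSG00000070691; chromosome 4, 135120652 to 135177990, plus strand) was at 261, 238, 239 and 237 CPM in WT and at 222, 189, 193 and 275 CPM in KO. S8 was above every WT sample and the other KO samples were below all of them. The log2 fold change was -0.15 with a 95% interval of -0.39 to 0.10 (adjusted p = 0.486). Its relatives *Runx2* and *Runx1* had log2 fold changes of 0.50 (SE 0.09, adjusted p = 0.00145) and 0.48 (SE 0.13, adjusted p = 0.026), both under the fold limit.

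Of the 8 genes listed as RUNX family, cofactor and lineage targets, 2 were called and both rose. *Itgae*, which encodes the residency integrin CD103, was at 12.8, 8.12, 16.6 and 4.70 CPM in WT and at 79.9, 103, 73.9 and 81.4 CPM in KO. This was the largest log2 fold change of the list, at 3.00 (SE 0.27, adjusted p = 1.19e-06). *Zbtb7b*, which encodes ThPOK, the CD4 lineage factor that opposes RUNX3, was at 34.5 to 49.9 CPM in WT and at 92.9 to 108 CPM in KO (log2 fold change 1.19, adjusted p = 9.31e-06). *Cd8b1*, the CD8 beta chain, had a log2 fold change of -0.39 (adjusted p = 0.0158). *Itgae* and *Zbtb7b* are also expressed by CD4+ or regulatory T cells. Some markers of these cells were called higher in KO, *Zbtb7b* being 1 of them, and the part of such cells was not tested.

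*Stat4* (ENSMUSG00000062939; chromosome 1, 51987148 to 52107189, plus strand) was at 122, 101, 84.0 and 88.9 CPM in WT. In KO it was at 136, 141, 130 and 128 CPM. All 4 KO samples were above every WT sample. The means were 98.8 ± 16.7 and 134 ± 5.86 CPM (SD, n = 4), and the log2 fold change of 0.43 (SE 0.12, 95% interval 0.19 to 0.68, adjusted p = 0.0218) was not called. *Stat4* shares 1033 exon bases with *Gm28177* on the same strand, which held 3.23% as many counts. These are 1033 of the 3872 exon bases of *Stat4*, and how reads in the shared bases were counted is not given in the sources used here.

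Of the 12 genes listed as STAT4 inputs and other STATs, 4 were called and all rose. They are the 4 receptor chains through which interleukin-12 and interleukin-18 act. STAT4 carries the interleukin-12 signal, so the name STAT4 inputs applies to *Il12rb1* and *Il12rb2* and not to the interleukin-18 receptor genes. *Il12rb2*, the inducible chain of the interleukin-12 receptor, was at 239, 212, 237 and 259 CPM in WT and at 512, 534, 674 and 355 CPM in KO (log2 fold change 1.13, SE 0.15, adjusted p = 6.76e-05). *Il12rb1*, its partner, was at 49.9 to 52.1 CPM in WT and 77.7 to 101 CPM in KO (log2 fold change 0.79, adjusted p = 1.86e-04). The interleukin-18 receptor genes *Il18r1* and *Il18rap* had log2 fold changes of 0.69 (adjusted p = 2.84e-04) and 0.60 (adjusted p = 0.00243). For each of these 4 genes all KO samples were above all WT samples. The relative *Stat3* had a log2 fold change of 0.12 (adjusted p = 0.62). *Stat2* had 0.57 (adjusted p = 0.00547), under the fold limit, with all KO samples above all WT samples. *Stat5a* had -0.34 (adjusted p = 0.077), with all KO samples below all WT samples. Tested against a fold change of 1.5 instead of against no change, 1 of the 4 receptor genes was still called.

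*Foxo1* (ENSMUSG00000044167; chromosome 3, 52268336 to 52353221, plus strand) was at 172, 156, 131 and 133 CPM in WT and at 148, 159, 163 and 188 CPM in KO, and the groups overlapped. KO against WT, the log2 fold change was 0.15 with a 95% interval of -0.08 to 0.39 (adjusted p = 0.451). Its relative *Foxo3* had a log2 fold change of -0.18 (adjusted p = 0.556). Of the 11 genes listed as FOXO family and targets, 1 rose and 1 fell, and both are genes that FOXO1 is known to sustain. *Il7r*, the interleukin-7 receptor, was at 185, 162, 172 and 217 CPM in WT and at 411, 456, 484 and 345 CPM in KO (log2 fold change 1.20, SE 0.12, adjusted p = 4.65e-06). *Ccr7*, the lymph node homing receptor, was at 150, 200, 154 and 177 CPM in WT and at 95.4, 94.4, 72.4 and 101 CPM in KO (log2 fold change -0.90, SE 0.12, adjusted p = 1.19e-04). The groups overlapped for neither. *Tcf7*, which encodes TCF1, was at 86.1 to 124 CPM in WT and 43.3 to 84.7 CPM in KO, with all KO samples below all WT samples. Its log2 fold change of -0.54 (adjusted p = 0.0633) was not called. *Pik3ip1*, which encodes an inhibitor of PI3K, had a log2 fold change of 0.53 (adjusted p = 0.16). Without S8, 2 genes of the list were called lower.

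*Ikzf2* (ENSMUSG00000025997; chromosome 1, 69531214 to 69687245, minus strand) was at 303, 321, 370 and 370 CPM in WT and at 353, 216, 289 and 279 CPM in KO. S5 lay inside the WT range and the other KO samples lay below it. The log2 fold change was -0.26 with a 95% interval of -0.53 to 0.01 (adjusted p = 0.218). None of the other 4 Ikaros family genes was called in edgeR's quasi-likelihood test or by DESeq2, and 1 had an unadjusted p under 0.05. *Ikzf3*, which encodes Aiolos, had a log2 fold change of 0.38 (SE 0.09, adjusted p = 0.00823), under the fold limit, with all KO samples above all WT samples, and *Ikzf1*, *Ikzf4* and *Ikzf5* had 0.05, 0.36 and -0.28.

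Of 17 tested genes listed as other memory and exhaustion regulators, 2 rose and 1 fell. *Rora*, which encodes a nuclear receptor, was at 196 to 255 CPM in WT and 335 to 404 CPM in KO (log2 fold change 0.75, adjusted p = 1.27e-04), and *Bcl6*, which encodes a repressor linked to memory, at 19.3 to 30.4 and 38.7 to 42.1 CPM (log2 fold change 0.82, adjusted p = 0.00292). *Tox*, the exhaustion factor, fell from 72.1 to 113 CPM in WT to 39.9 to 49.7 CPM in KO (log2 fold change -1.17, adjusted p = 3.30e-05). Its relative *Tox2* went the other way, at 0.990 CPM or less in WT and 3.83 to 6.26 CPM in KO. It had a log2 fold change of 3.68 (adjusted p = 0.0107) and was not called. *Nr4a3* had a log2 fold change of 0.53 (adjusted p = 0.00288), under the fold limit. *Nr4a2* had -0.54 (adjusted p = 0.00506), also under the fold limit, with all KO samples below all WT samples. *Nr4a1* had 0.25 (adjusted p = 0.108). Without S2 or without S7, 1 gene of this list was called higher, without S2, S4, S5 or S6, 2 were called lower, and DESeq2 called 4 higher. Counting each gene of all the lists once, 12 of 83 tested genes were called, 9 higher and 3 lower. That is 14.5%, against 4.90% of all genes, and the lists were drawn up with earlier results of these data known.

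**Figure D3:**
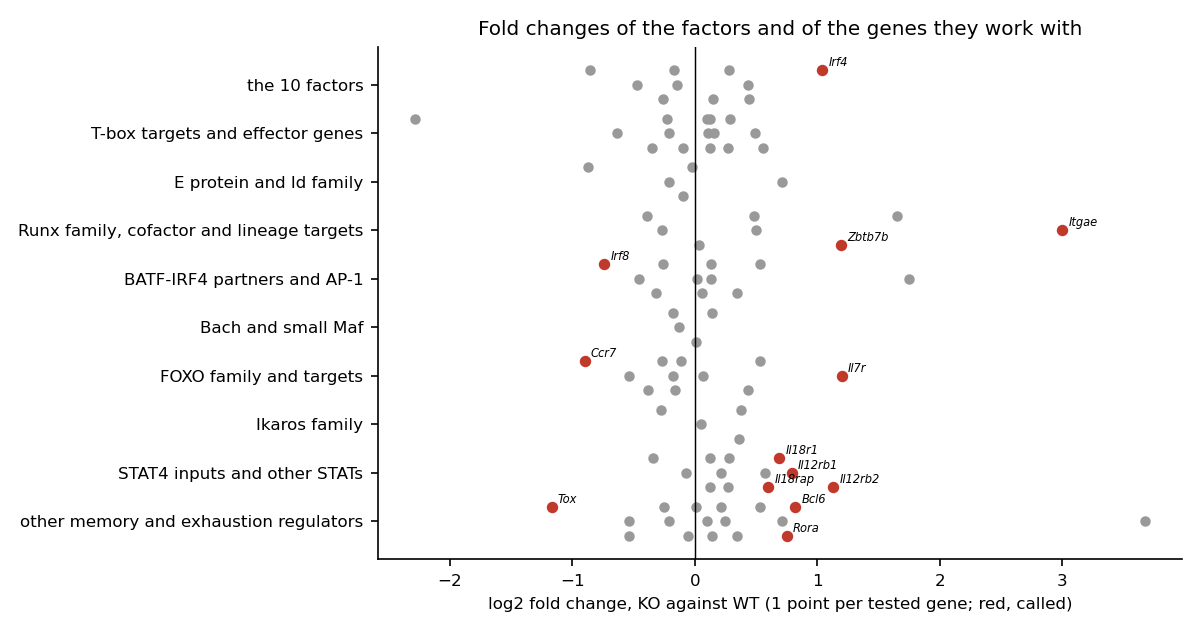
Log2 fold changes, KO against WT, of the 10 factors (top row) and of the tested genes of each list, 1 point per gene, with called genes in red and named. The list of STAT4 inputs and other STATs has 4 called genes of 12, all to the right of 0. They include the interleukin-18 receptor genes *Il18r1* and *Il18rap*, which are not STAT4 inputs. The T-box list has none of 15, and 4.90% of all tested genes were called.

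**Figure D4:**
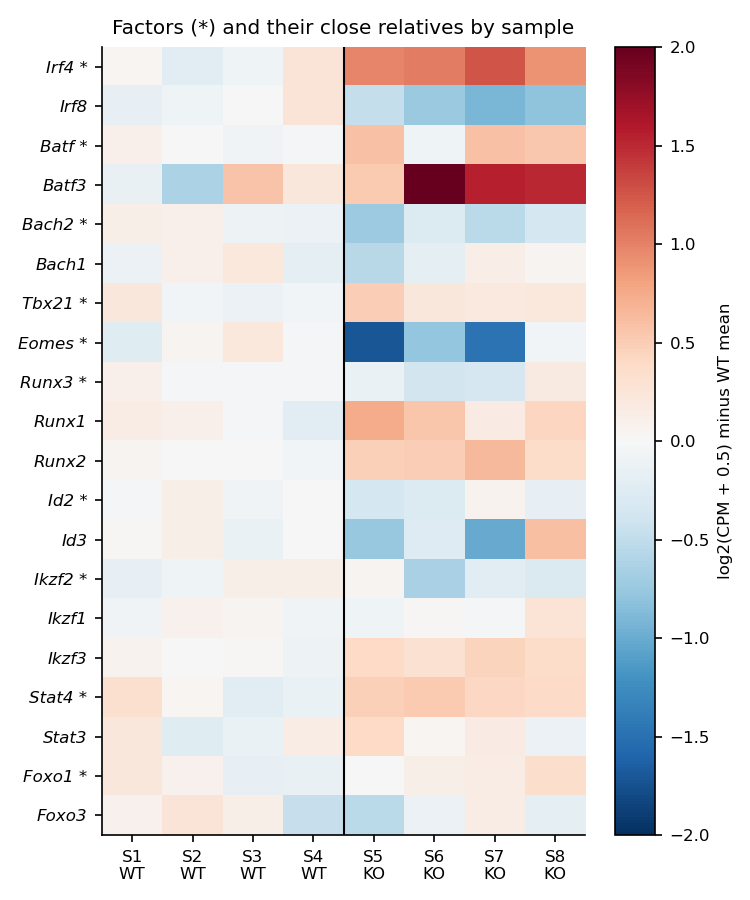
Log2(CPM + 0.5) of the 10 factors (marked with an asterisk) and of 10 relatives in each sample, minus the WT mean, with red for higher and blue for lower. *Irf4* is red in all 4 KO samples while *Irf8* is blue in all 4, and *Eomes* is blue in S5, S6 and S7 but near 0 in S8; the scale stops at 2 in either direction.

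Levels of different genes were compared as CPM per kilobase of exon. In WT the order of the mean levels was *Id2* (154), *Tbx21* (62.6), *Runx3* (48.7), *Irf4* (38.6), *Ikzf2* (29.4), *Stat4* (25.5), *Batf* (22.5), *Foxo1* (17.1), *Eomes* (13.2) and *Bach2* (8.53 CPM per kilobase). The ranges of *Ikzf2* and *Stat4*, of *Stat4* and *Batf*, and of *Foxo1* and *Eomes* overlapped, and the other neighbors were apart in all WT samples. In KO *Irf4* stood next to *Tbx21*, at 79.4 ± 8.72 and 76.0 ± 7.71 CPM per kilobase (SD, n = 4), and their ranges overlapped. *Id2* stayed first at 137 CPM per kilobase, *Runx3* came after this pair at 43.9, and *Stat4*, *Batf*, *Ikzf2* and *Foxo1* followed at 34.5 to 19.0 with each overlapping the next. *Eomes* and *Bach2* were last at 7.23 and 6.16 CPM per kilobase and overlapped.

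Ratios between 2 factors within a sample do not depend on the scaling of the library. Each was taken as the log2 ratio of counts with a prior count of 2 and compared with an exact two-sided permutation test over the 70 arrangements of 4 against 4 samples, whose smallest p is 0.0286, adjusted over 3 ratios. The ratio of *Eomes* to *Tbx21* was -1.97, -1.40, -1.16 and -1.49 in WT and -3.72, -2.50, -3.18 and -1.78 in KO. S8 alone of the KO samples lay inside the WT range. The means were -1.50 ± 0.34 and -2.80 ± 0.84 (SD, n = 4), a difference of -1.29 (exact p = 0.0571, adjusted p = 0.0857), and it did not pass the test. Leaving out single samples gave -0.98, without S5, to -1.63, without S8, with adjusted p-values of 0.129 without S2, S3, S4 or S5, 0.0857 without S1, S6 or S7 and 0.0429 without S8.

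The ratio of *Bach2* to *Batf* was 1.43, 1.51, 1.39 and 1.34 in WT and 0.09, 1.24, 0.29 and 0.51 in KO. All 4 KO samples were lower, S6 by the least. The means were 1.42 ± 0.07 and 0.53 ± 0.50 (SD, n = 4), a difference of -0.88 at the smallest p of the design (exact p = 0.0286, adjusted p = 0.0857). Leaving out S2, S3 or S4 gave an adjusted p of 0.129. Without S8 the difference was still -0.88, and its adjusted p of 0.0429 was lower because the ratio of *Eomes* to *Tbx21*, adjusted with it, then also had the smallest p. The ratio of *Id2* to *Id3* was 4.23 ± 0.05 in WT and 4.41 ± 0.78 in KO, a difference of 0.19 (exact p = 0.686, n = 4 each), and without S7 it was -0.12. The KO samples ran from 3.46 in S8 to 5.33 in S7, on both sides of the WT range of 4.17 to 4.28.

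**Figure D5:**
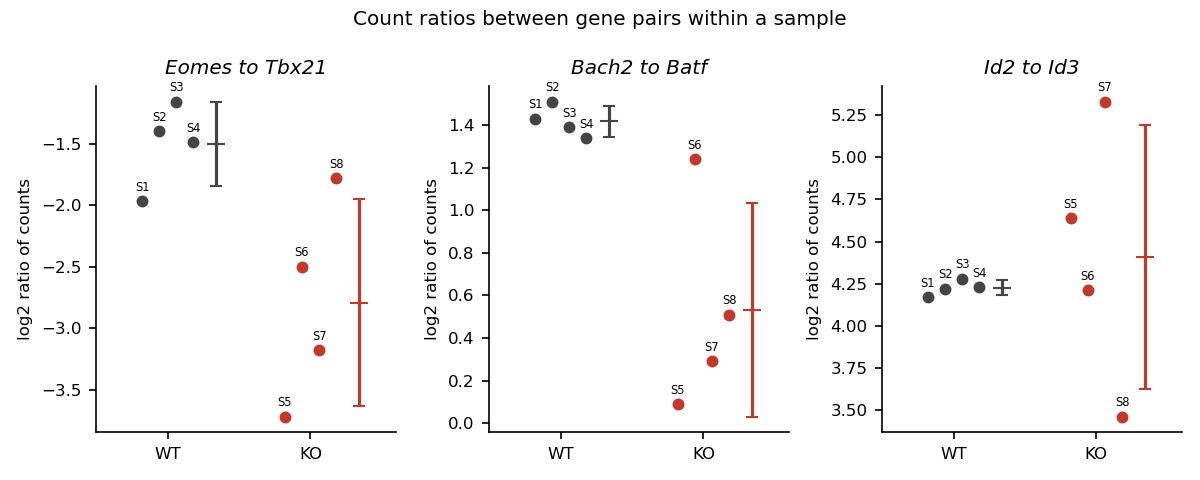
Log2 ratios of counts between gene pairs within each WT (grey) and KO (red) sample, with the mean and SD of 4 samples beside the points. The ratio of *Bach2* to *Batf* is at 1.24 or less in KO and 1.34 or more in WT, and the other ratios overlap between the groups; each panel has its own axis.

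The genes most like each factor were taken as the 2 with the highest Pearson correlation of log2 CPM over the 8 samples, among 7198 genes with a mean log2 CPM above 4. They are the highest of many, so no test applies, and the 2 genotypes contribute to them. *Irf4* was most like *Il7r* (r = 0.993 over 8 samples and 0.91 after each genotype was centered) and *Gm37248* (0.985 and 0.82), both called higher. *Bach2* was most like *Gyg* (0.973) and *Itga4* (0.967). *Itga4*, which encodes the homing integrin subunit CD49d, was at 618, 494, 379 and 335 CPM in WT and at 154, 291, 230 and 323 CPM in KO, and fell by 0.87 on the log2 scale (adjusted p = 0.00897). *Eomes* was most like *Zfpm1* (0.983) and *Aldh9a1* (0.972), *Stat4* most like *Prr14* (0.986) and *Spsb3* (0.977), and none of these 4 was called. For the other factors the nearest were *Sik3* and *Pogz* for *Tbx21*, *Cox4i1* and *Mcl1* for *Id2*, *Zfp512* for *Runx3*, *Tmx4* and *Spop* for *Batf*, *Guf1* and *Mplkip* for *Ikzf2*, and *Ppp1r12a* and *Syvn1* for *Foxo1*, none of them called.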

How the data were processed

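RNA was sequenced from 4 WT and 4 KO samples of sorted CD8+ TILs after ribosomal RNA depletion. The authors aligned reads with STAR to GRCm38, counted them over GENCODE genes with featureCounts and deposited raw counts per gene, without normalization. Whether counting used strand is not given in the sources used here, so reads of *Eomes* and its antisense gene *Gm33460* (2.03% as many counts) may not be separated. All 8 columns were used. Their genotype follows the study's names for these libraries; replicate numbers could not be attached. No 2 libraries of a group were identical: the median chi-square per gene between them was 4.82 to 8.30.

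Gene names, positions and exon lengths were taken from GENCODE M21 (GRCm38), where 55154 of 55335 gene IDs were found, and upstream sequences from RefSeq. Counts were fitted with edgeR 4.0.16 in R 4.3.3 (filterByExpr, TMM, estimateDisp, glmQLFit, glmQLFTest, no covariates), with Benjamini-Hochberg adjustment over 15378 genes. Standard errors came from dividing the size of each log2 fold change by the root of its F statistic. Unless another test is named, adjusted p-values of single genes are from this fit. The procedure was tested on simulated data. Counting limits cover counting error only. p-values over samples rest on 4 biological replicates per group. Alternatives were other scalings, filters, DESeq2 1.42.0, thresholds, a GC content offset (mgcv 1.9.3) and leaving out each sample. The CQN correction used by the authors was not repeated.

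The genes named are the 10 factors, *Kdm1a*, up to 4 genes of each list with the smallest p, close relatives, and the 2 genes most correlated with each factor; a few genes under this rule are not reported here. *Blk*, *Krt8*, *Krt19*, the markers *Ctla4*, *Il2ra*, *Cd40lg*, *Cd4* and *Foxp3*, and genes with overlapping exons were named besides. *Nr4a1*, *Nr4a2*, *Tox2*, *Stat2* and *Stat5a* were added after their values were seen. The factors, lists and relatives were chosen with earlier results of these data known.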

Additional observations from a re-analysis of the deposited data

Results flagged for a closer look

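The log2 CPM of the 10 factors and of *Kdm1a* and the 3 log2 ratios were screened in the WT and KO groups of 4 samples for a sample whose gap to the nearest other, divided by the range of the group, was above Dixon's critical value at the 95% level. Of 28 groups screened, 3 were flagged, where chance flags about 1 in 20. *Tbx21* in KO had a gap ratio of 0.898, with S5 at a log2 CPM of 7.77 and the others at 7.47 to 7.50. *Runx3* in WT had a gap ratio of 0.910, with S1 at 8.03 and the others at 7.89 to 7.90. *Batf* in KO had a gap ratio of 0.935, with S6 at 4.89 and the others at 5.53 to 5.58. The cause was not tested.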

How the results depend on the processing

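No paired analysis was possible because the columns of the count table carry no replicate numbers. Each factor kept the direction of its log2 fold change in all 17 alternatives, and *Irf4* was called in each of them. With an adjusted p under 0.05 and no fold limit, 2 factors were higher and 2 lower. The number of factors called lower was 1 with no filter on low counts and 1 without S8, in both cases *Eomes*, and leaving out single samples gave 0 to 1; the cause was not tested. Over all genes, 447 were called higher and 306 lower. These became 165 and 130 when tested against a fold change of 1.5, and 971 and 766 with an adjusted p under 0.05 and no fold limit. No gene of the BATF-IRF4 or FOXO lists was called lower against a fold change of 1.5, and none of the other regulators higher. Genes called lower were 531 with no filter and 461 with DESeq2, and leaving out single samples gave 347 to 452 higher and 199 to 303 lower, with 199 without S2. Leaving out single samples, the ratio of *Eomes* to *Tbx21* differed by -1.63 to -0.98, that of *Bach2* to *Batf* by -1.12 to -0.74 and that of *Id2* to *Id3* by -0.12 to 0.50. The difference in the CD8+ T cell marker score, -0.01, ran from -0.06 to 0.03, and was above 0 without S4, S6 or S8. Scaling moved the median of all genes by at most 0.022 on the log2 scale. Depth limits genes near 0.25 CPM, such as *S1pr5*, and not the factors.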

Other observations

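S8, the deepest library, was the highest KO sample for 7 of 15 genes of the T-box list and for 7 of 11 of the FOXO list, against 23.2% of all tested genes, but for 0 of 8 of the RUNX list. It was the lowest KO sample for 5 of the same 15 genes of the T-box list and for 8 of 17 other memory and exhaustion regulators. Over all 15378 tested genes, it was the lowest for 3158. Of the 10 factors, S8 was highest for 3, S5 for 3, S6 for 2 and S7 for 2. *Klf2*, *S1pr1* and *Cxcr3*, genes of lymphocyte homing and egress, were picked after their values were seen. In S8, *Klf2* was at 85.0 CPM, against 16.7 to 25.1 CPM in the other KO samples and 32.3 to 60.8 CPM in WT. The other KO samples thus lay below every WT sample and S8 above. *S1pr1* was at 124 CPM in S8, against 39.8 to 60.0 CPM in the other KO samples and 36.5 to 56.4 CPM in WT. *Cxcr3* was at 127 CPM in S8, against 41.9 to 65.8 CPM in the other KO samples and 53.1 to 70.9 CPM in WT. Whether depth or the cells of that mouse went with these levels was not tested.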
